A study of Mus musculus with 12 samples.

Results

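The collagen genes described here were all genes whose symbol is formed as Col, a number, a and a number, found on the array through the RefSeq accession that each probe carries. Where several probes read 1 gene, the probe with the highest mean over the 12 arrays stood for it. These rules gave 43 genes, read by 63 probes, out of 20660 named genes on the array. By class they were 11 fibrillar, 6 basement membrane and 26 other collagens. Col12a1 and Col21a1 were not analysed here.

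The series compared subcutaneous white adipose tissue (scWAT) and brown adipose tissue (BAT) of mice lacking LR11, a sorting receptor encoded by Sorl1, with those of wild-type (WT) littermates. Both depots were taken from both genotypes, which gave 4 groups of 3 arrays each. All mice were male, of the C57Bl6/J strain and 12 weeks old. Every group, WT included, had been fed a high-fat diet with 60% of calories from fat, which the labels describe both as 4 weeks long and as starting at weaning. The deletion is not tied to a cell type or to adipose tissue, so the whole animal lacked the receptor. Whether a sample is a single mouse or a pool is not given in the sources used here, and p-values measure the spread between these samples.

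Collagens are proteins of 3 chains wound into a triple helix, and each gene encodes 1 chain. Fibrillar collagens (types I, III and V among them) assemble into the fibrils that give a tissue its tensile strength. Type IV collagen forms the sheet-like network of basement membranes, which in adipose tissue surround each adipocyte and each capillary. Type VI collagen makes beaded filaments between the basement membrane and the fibrils, and is abundant in adipose tissue. The remaining collagens decorate fibrils, span cell membranes or form short-chain networks. Fibroblasts and adipocyte progenitors are the main source of fibrillar collagen in fat, whereas adipocytes and vessel cells also make type IV and type VI collagen.

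A level here is the log2 intensity of a probe minus the 75th percentile of its array, so that 1 unit is a doubling, and levels of different probes are not set against each other. A probe entered the test when all 3 arrays of some group showed it well above background. Of the 43 collagen genes, 29 passed, against 32121 of 55681 probes on the whole array. Well above background on all 12 arrays were 25 collagen genes: 8 fibrillar (Col1a1, Col1a2, Col3a1, Col5a1, Col5a2, Col5a3, Col11a2 and Col27a1), 5 basement membrane (Col4a1, Col4a2, Col4a4, Col4a5 and Col4a6) and 12 other (Col6a1, Col6a2, Col6a3, Col7a1, Col8a1, Col9a2, Col14a1, Col15a1, Col16a1, Col18a1, Col20a1 and Col23a1). Medians and counts of direction below refer to these 25. Col8a2 and Col28a1 entered the test only through the WT scWAT arrays and Col10a1 only through the Lr11-/- BAT arrays, so their differences are described and support nothing. Col9a1 was above background on 11 arrays. The other 14 genes were not tested. Col2a1, Col6a4, Col9a3 and Col19a1 were not well above background on any array, and Col4a3, Col6a5, Col6a6, Col11a1, Col13a1, Col17a1, Col22a1, Col24a1, Col25a1 and Col26a1 on 1 to 4 arrays each.

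Several arrays stood apart. The targeted gene Sorl1 read from 0.11 to 1.21 on the 6 WT arrays and from -3.93 to -2.45 on the 6 Lr11-/- arrays, as the labels have it. Replicates 2 and 3 of Lr11-/- scWAT held brown adipocyte markers at the level of BAT: the uncoupling protein Ucp1 read 9.75 and 10.05 there, 4.39 on Lr11-/- scWAT replicate 1, -4.63, -4.52 and 2.92 on the WT scWAT arrays and 9.45 to 10.07 on the 6 BAT arrays. Replicate 2 of WT scWAT had the lowest level of the adipocyte hormone Adipoq, 3.84 against 6.61 to 8.55 on the other 11 arrays. All 7 skeletal muscle markers were well above background on 5 arrays (WT scWAT replicate 3, Lr11-/- scWAT replicate 1, WT BAT replicates 1 and 3, and Lr11-/- BAT replicate 1) and 1 to 3 of them on the other 7. WT scWAT replicate 3 also held all 4 mesothelium markers and Lr11-/- scWAT replicate 1 all 6 epithelium markers. The genotype calls in scWAT are given below with and without the arrays that bear on them.

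In scWAT, Col16a1, Col6a1 and Col23a1 fell in Lr11-/- mice, and most fibrillar collagens had lower means without passing the test. In BAT no collagen gene passed between the genotypes. The falls in scWAT were those of 3 of the 25 genes above background on all arrays, at an adjusted p of 0.05 in limma, against 1.52% of such probes. Col8a2 and Col28a1, which had to differ to be tested, also passed, so that 5 of the 29 tested genes did, all lower and all of the class of other collagens; over the whole array, 5.27% of tested probes passed, 1.87% lower and 3.4% higher. At an unadjusted p under 0.05 the number was 17, all lower, against 10.8% of all tested probes. Over the genes above background on all arrays the mean was lower in Lr11-/- in 19 of 25, against 45% of probes, and the median difference was -1.58 in log2, against 0.07 over all 25789 probes of that kind. The Lr11-/- arrays lay below all 3 WT arrays, without overlap, in 9 of the 25 genes, against 7.57% of probes. The test used a spread shared by scWAT and BAT. For Col16a1 the SD was 1.1 in WT scWAT and 0.76 in Lr11-/- scWAT, but 0.16 in WT BAT and 0.27 in Lr11-/- BAT. When only the scWAT groups were fitted, no collagen gene passed.

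**Figure D1:**
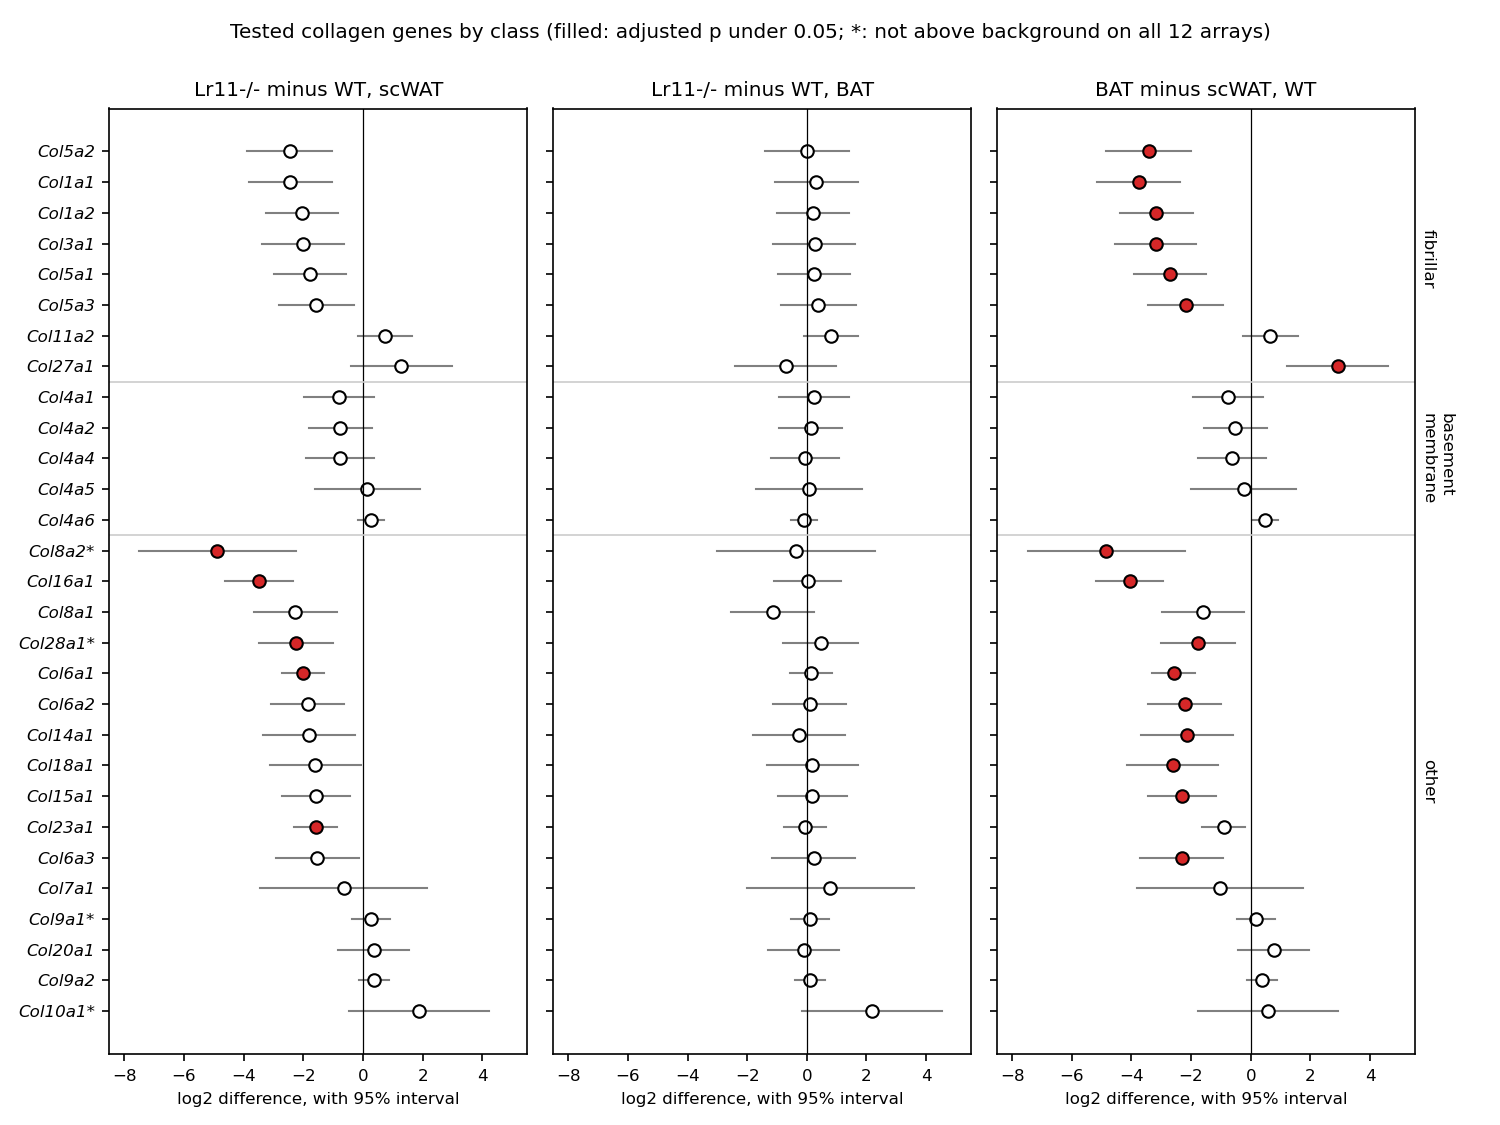
Differences of the 29 tested collagen genes with their 95% intervals from limma, by class, for Lr11-/- minus WT in scWAT (left), Lr11-/- minus WT in BAT (middle) and BAT minus scWAT in WT mice (right); the x axis is in log2 units, filled points have an adjusted p under 0.05, and asterisks mark genes not above background on all 12 arrays. Filled points number 5 on the left, 0 in the middle and 16 on the right, and the 5 basement membrane genes are unfilled in all panels.

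The fibrillar class is led by the 2 chains of type I collagen, Col1a1 and Col1a2, and the single chain of type III collagen, Col3a1. Col1a1 read 6.58, 8.39 and 5.43 on the WT scWAT arrays (replicates 1, 2 and 3), 4.81, 4.10 and 4.19 on the Lr11-/- scWAT arrays, 3.36, 2.65 and 3.11 on the WT BAT arrays and 3.81, 3.69 and 2.57 on the Lr11-/- BAT arrays. All 3 Lr11-/- scWAT arrays lay below all 3 WT scWAT arrays, and above all 3 WT BAT arrays. The difference between genotypes in scWAT was -2.43 ± 0.63 (SE), 5.40-fold, with an adjusted p of 0.052 in limma, which missed the threshold.

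Col1a2 read 7.24, 9.48 and 7.03 in WT scWAT, 6.25, 5.61 and 5.77 in Lr11-/- scWAT, 4.84, 4.45 and 4.98 in WT BAT and 5.0, 5.37 and 4.51 in Lr11-/- BAT. The 2 scWAT groups did not overlap, and WT scWAT replicate 2 was the highest array. The difference was -2.04 ± 0.55 (adjusted p = 0.056, limma). Col3a1 read 7.5, 8.55 and 5.49 in WT scWAT, 5.45, 4.92 and 5.18 in Lr11-/- scWAT, 4.18, 3.71 and 4.09 in WT BAT and 4.62, 4.54 and 3.58 in Lr11-/- BAT. Here the groups were separated by the narrow gap between WT replicate 3 and Lr11-/- replicate 1, and the difference was -2.00 ± 0.62 (adjusted p = 0.078, limma). Within the first array series, which held 1 array a group, the Lr11-/- scWAT array was lower than the WT array by values of -1.77 for Col1a1, -0.99 for Col1a2 and -2.05 for Col3a1; within the second series of 2 arrays a group the differences were -2.77, -2.57 and -1.97.

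Col1a2 and Col3a1 had like differences between the groups while their promoters differ in base composition, which is why both windows are shown. They are from RefSeq on GRCm38.p6 and run from 250 bases before to 50 after the annotated start, on the strand of the gene: chr6:4505368-4505667 (+ strand) and chr1:45311288-45311587 (+ strand). Capitals mark 3 motifs searched on both strands: TATAAA (the TATA box), CCAAT (the CCAAT box) and GGGCGG (the core of the GC box). A match on the opposite strand is marked in the same way.
Col1a2: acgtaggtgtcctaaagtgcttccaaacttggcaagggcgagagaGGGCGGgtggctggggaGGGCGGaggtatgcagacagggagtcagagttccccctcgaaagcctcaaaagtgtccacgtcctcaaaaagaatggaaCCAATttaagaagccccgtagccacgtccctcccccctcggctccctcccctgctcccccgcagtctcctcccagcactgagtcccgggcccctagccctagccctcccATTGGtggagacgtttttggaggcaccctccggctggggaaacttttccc
Col3a1: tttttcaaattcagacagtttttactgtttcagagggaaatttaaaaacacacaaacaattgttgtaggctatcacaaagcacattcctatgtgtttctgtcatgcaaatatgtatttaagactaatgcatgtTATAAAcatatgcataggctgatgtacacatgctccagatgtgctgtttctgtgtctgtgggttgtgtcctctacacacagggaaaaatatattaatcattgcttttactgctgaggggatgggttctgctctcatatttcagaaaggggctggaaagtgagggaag
The Col1a2 window held CCAAT at 2 places and GGGCGG at 2, with 13 CpG dinucleotides and a GC content of 61%. In the Col3a1 window there were 1 TATAAA, at position -117 from the annotated start, no CpG and a GC content of 37.7%. Of all 32851 promoter windows searched, 13.6% held TATAAA, 37.4% CCAAT and 35.7% GGGCGG. Of the 35 collagen genes with a window, 5, 13 and 22 held them in any of their windows. Some genes, such as Col18a1, have 2 windows, so the percentages per window and the counts per gene are in unlike units. A match describes these letters and shows no bound factor.

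Type V collagen is built into type I fibrils and limits their diameter; its chains are encoded by Col5a1, Col5a2 and Col5a3. Col5a2 read 0.76, 2.56 and -0.66 in WT scWAT, -1.26, -1.85 and -1.60 in Lr11-/- scWAT, -2.56, -2.36 and -2.67 in WT BAT and -2.27, -2.07 and -3.22 in Lr11-/- BAT. It had the largest fibrillar difference between genotypes in scWAT, -2.46 ± 0.64 (adjusted p = 0.052, limma), and its groups did not overlap. Col5a1 (-1.77 ± 0.55) did not overlap either, whereas Col5a3 (-1.56 ± 0.57) did; their adjusted p-values were 0.077 and 0.11 in limma. Col5a2 and Col3a1 are direct neighbours among the protein-coding genes of chromosome 1. The 2 fibrillar genes with the opposite sign were Col27a1, a collagen known from cartilage, at 1.29 ± 0.77 (adjusted p = 0.30, limma), and Col11a2, at 0.74 ± 0.41 (adjusted p = 0.27, limma). Col11a2 read -3.92, -3.06 and -3.12 in WT scWAT, -3.44, -1.94 and -2.50 in Lr11-/- scWAT, -2.12, -2.74 and -3.26 in WT BAT and -1.93, -2.05 and -1.71 in Lr11-/- BAT, so that only its BAT groups were apart. Over the 8 fibrillar genes 6 had a lower mean in Lr11-/- scWAT, the median difference was -1.88, and 0 passed the adjusted threshold, with 6 past an unadjusted p of 0.05.

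**Figure D2:**
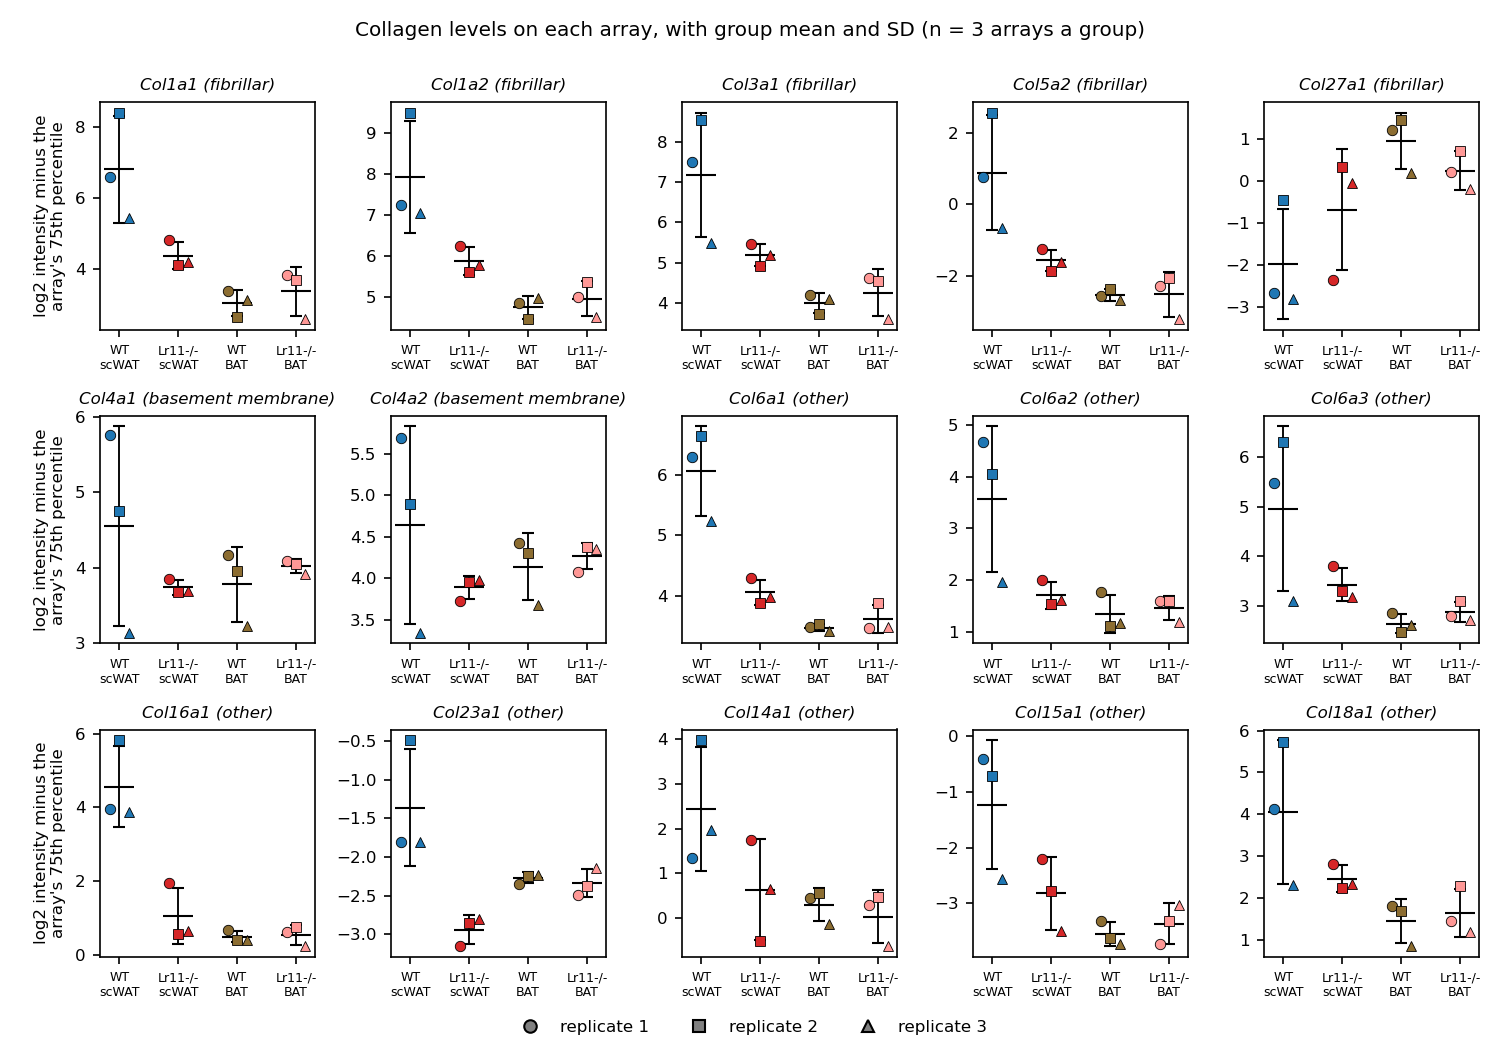
Levels of 15 collagen genes on each array (y axis: log2 intensity minus the 75th percentile of the array) in the 4 groups; symbols mark replicates, horizontal bars the group mean and vertical bars the SD of 3 arrays. The WT scWAT arrays lie highest for Col1a1, Col1a2, Col6a1 and Col16a1, while Col27a1 is highest in WT BAT and Col4a1 and Col4a2 overlap between the genotypes in both depots.

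Basement membrane collagens did not pass the test in either genotype comparison. Col4a1 and Col4a2 encode the chains of the common type IV network. Col4a1 read 5.77, 4.75 and 3.13 in WT scWAT, 3.85, 3.67 and 3.69 in Lr11-/- scWAT, 4.17, 3.95 and 3.22 in WT BAT and 4.09, 4.05 and 3.92 in Lr11-/- BAT. Col4a2 read 5.69, 4.90 and 3.34, then 3.73, 3.95 and 3.98, then 4.42, 4.30 and 3.68, then 4.08, 4.38 and 4.35 in the same order. The WT scWAT arrays spanned both sides of the Lr11-/- scWAT arrays for both genes, and the differences of -0.81 ± 0.53 and -0.76 ± 0.48 had adjusted p-values of 0.35 and 0.33 in limma. Their 95% intervals ran from -1.98 to 0.36 and from -1.81 to 0.30, both with 0 inside. Both stand highest on WT scWAT replicate 1, not on replicate 2, where 5 of the 6 type I, III and V genes peaked.

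Col4a1 and Col4a2 lie head to head on chromosome 8, and their promoter windows are shown because the pair shares 1 start region: chr8:11312777-11313076 (- strand) and chr8:11312555-11312854 (+ strand), RefSeq, GRCm38.p6, each on its own strand and with the same motifs in capitals.
Col4a1: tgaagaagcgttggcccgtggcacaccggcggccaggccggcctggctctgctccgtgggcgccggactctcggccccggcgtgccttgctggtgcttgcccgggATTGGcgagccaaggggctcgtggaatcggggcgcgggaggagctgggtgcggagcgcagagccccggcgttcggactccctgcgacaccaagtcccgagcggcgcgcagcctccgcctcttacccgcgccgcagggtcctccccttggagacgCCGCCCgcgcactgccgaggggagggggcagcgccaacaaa
Col4a2: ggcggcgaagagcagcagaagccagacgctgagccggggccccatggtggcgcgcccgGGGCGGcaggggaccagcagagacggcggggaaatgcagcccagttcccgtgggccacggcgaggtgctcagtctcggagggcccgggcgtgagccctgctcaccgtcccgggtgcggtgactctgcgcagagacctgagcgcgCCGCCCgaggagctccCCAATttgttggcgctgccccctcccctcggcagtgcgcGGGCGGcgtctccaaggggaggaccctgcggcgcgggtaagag
The annotated starts are 21 bases apart and the windows overlap by 78 bases, in which each is the reverse complement of the other. Both windows are rich in G and C (74% and 73.7%), with 37 and 33 CpG dinucleotides, 1 CCAAT each and no TATAAA. The first window held GGGCGG at 1 place and the second at 3.

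The other type IV chains, found in more specialised basement membranes, did not pass either. Col4a4 differed by -0.76 ± 0.52, Col4a5 by 0.15 ± 0.80 and Col4a6 by 0.28 ± 0.20 between the genotypes in scWAT, with adjusted p-values in limma of 0.36, 0.92 and 0.38. A dimmer probe of Col4a6, well above background on 3 arrays, was not tested and went the other way, at -1.26. Col4a5 read -0.79, -3.91 and 0.26 on the WT scWAT arrays and between -2.01 and -1.04 on the other 9. The lowest of all was WT scWAT replicate 2, the array with the lowest Adipoq. The class median was -0.76 in scWAT, with 3 of 5 means lower; it was -0.16 in the second array series alone and -0.11 without replicates 2 and 3 of Lr11-/- scWAT. Col4a3 was not tested.

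Type VI collagen is encoded mainly by Col6a1, Col6a2 and Col6a3, of which Col6a1 passed the test. Col6a1 read 6.29, 6.64 and 5.23 in WT scWAT, 4.29, 3.88 and 3.98 in Lr11-/- scWAT, 3.48, 3.53 and 3.42 in WT BAT and 3.47, 3.88 and 3.48 in Lr11-/- BAT. The 2 scWAT groups did not overlap, and the fall of -2.00 ± 0.32, 4.00-fold, had an adjusted p of 0.022 in limma. It was -2.00 in the first and -2.00 in the second array series. Col6a2 (-1.85 ± 0.55, adjusted p = 0.072) and Col6a3 (-1.53 ± 0.63, adjusted p = 0.15) did not pass in limma. For both, WT scWAT replicate 3 lay inside the range of the Lr11-/- scWAT or BAT arrays: Col6a2 read 4.66, 4.05 and 1.96 in WT scWAT against 2.0, 1.53 and 1.61 in Lr11-/- scWAT, and Col6a3 read 5.48, 6.31 and 3.09 against 3.81, 3.29 and 3.18. In WT BAT, Col6a2 read 1.78, 1.12 and 1.17 and Col6a3 2.85, 2.46 and 2.61; in Lr11-/- BAT, 1.59, 1.60 and 1.20 and 2.79, 3.10 and 2.72. Col6a1 and Col6a2 are neighbours on chromosome 10. Col6a4, Col6a5 and Col6a6 were not tested.

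Col16a1, a collagen attached to fibrils and to basement membrane surfaces, had the largest fall among the genes above background on all arrays. It read 3.97, 5.83 and 3.89 in WT scWAT, 1.95, 0.59 and 0.66 in Lr11-/- scWAT, 0.69, 0.42 and 0.41 in WT BAT and 0.62, 0.76 and 0.24 in Lr11-/- BAT. Replicates 2 and 3 of Lr11-/- scWAT lay within the range of BAT, and replicate 1 lay between BAT and the WT scWAT arrays. The fall was -3.49 ± 0.51, 11.3-fold, with an adjusted p of 0.015 in limma. It was -2.02 in the first array series and -4.23 in the second. Another probe of the gene, also above background on all 12 arrays, fell by 3.54 on the log2 scale, with an adjusted p of 0.016 in limma; the remaining one was well above background on 5 arrays. Its promoter, at chr4:130047590-130047889 (+ strand, RefSeq, GRCm38.p6), is shown as that of the gene with the largest such fall, with motifs in capitals as above.
Col16a1: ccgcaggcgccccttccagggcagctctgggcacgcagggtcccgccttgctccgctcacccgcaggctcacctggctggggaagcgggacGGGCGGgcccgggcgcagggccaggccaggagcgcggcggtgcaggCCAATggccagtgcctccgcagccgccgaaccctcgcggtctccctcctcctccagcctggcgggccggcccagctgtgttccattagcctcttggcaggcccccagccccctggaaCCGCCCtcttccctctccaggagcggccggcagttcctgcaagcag
It held 24 CpG dinucleotides at a GC content of 74.3%, with 1 CCAAT, 2 GGGCGG and no TATAAA.

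Col14a1, which binds fibril surfaces like Col16a1, differed by -1.81 ± 0.70 (adjusted p = 0.13, limma): it read 1.35, 3.99 and 1.97 in WT scWAT against 1.75, -0.52 and 0.65 in Lr11-/- scWAT, with overlap. In BAT the WT arrays read 0.44, 0.56 and -0.13 and the Lr11-/- arrays 0.28, 0.46 and -0.64. The fibril-associated Col9a2 and Col20a1 did not pass either, at 0.38 ± 0.23 and 0.37 ± 0.54 (adjusted p = 0.30 and 0.69, limma). Col20a1 read -3.05, -2.49 and -0.49 in WT scWAT, from -1.89 to -1.48 in Lr11-/- scWAT, -1.41, -1.40 and -0.88 in WT BAT and from -1.77 to -1.07 in Lr11-/- BAT, so that the WT scWAT arrays lay on both sides of all others.

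Col23a1, a collagen that spans the cell membrane, read -1.80, -0.48 and -1.81 in WT scWAT, -3.16, -2.85 and -2.81 in Lr11-/- scWAT, -2.35, -2.24 and -2.23 in WT BAT and -2.49, -2.38 and -2.14 in Lr11-/- BAT. It fell by 1.58 on the log2 scale (SE 0.33, adjusted p = 0.038, limma). Unlike the genes above, its Lr11-/- scWAT arrays lay below all BAT arrays as well. A dimmer probe of the gene differed by -1.39, with an adjusted p of 0.17 in limma.

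Col15a1 and Col18a1, the multiplexins of basement membrane zones (Col18a1 is the source of endostatin), differed by -1.59 ± 0.52 and -1.60 ± 0.69, with adjusted p-values of 0.087 and 0.17 in limma. Col15a1 read -0.42, -0.72 and -2.56 in WT scWAT, -2.20, -2.77 and -3.49 in Lr11-/- scWAT, -3.31, -3.61 and -3.73 in WT BAT and -3.73, -3.31 and -3.03 in Lr11-/- BAT. Col18a1 read 4.13, 5.73 and 2.31, then 2.82, 2.23 and 2.33, then 1.81, 1.68 and 0.84, then 1.45, 2.28 and 1.19 in that order. In both genes WT scWAT replicate 3 fell among the Lr11-/- scWAT arrays. With these 2 genes counted as basement membrane collagens the median of that class stayed at -0.76 in scWAT.

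The short-chain collagens of vessel walls and Descemet's membrane, Col8a1 and Col8a2, were both low in Lr11-/- scWAT. Col8a1 read -1.79, 1.24 and -0.78 in WT scWAT against -2.58, -2.48 and -3.07 in Lr11-/- scWAT, without overlap (-2.27 ± 0.63, adjusted p = 0.059, limma). Col8a2 read -4.36, 0.65 and 1.12 in WT scWAT against -4.52, -6.89 and -5.82 in Lr11-/- scWAT, where it was well above background on 1 of 3 arrays. Its fitted difference was -4.88 ± 1.19 (adjusted p = 0.046, limma), with WT replicates 2 and 3 far above WT replicate 1. The 6 BAT arrays, none of them well above background, lay between -6.87 and -5.41. A dimmer probe of Col8a2, well above background on 3 arrays, was not tested and differed by -0.65 between the genotypes in scWAT. Col28a1 read -3.13, -3.92 and -3.29 in WT scWAT and was not well above background on any Lr11-/- scWAT array, so that it was at least 2.06-fold lower there (adjusted p = 0.048, limma). In BAT it was well above background on 1 of 6 arrays.

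Col10a1, the collagen of hypertrophic cartilage, read -4.12, -6.35 and -6.83 in WT scWAT, -6.67, -2.43 and -2.58 in Lr11-/- scWAT, -5.51, -5.13 and -4.93 in WT BAT and -2.21, -2.86 and -3.96 in Lr11-/- BAT; it was well above background on the last group's 3 arrays, on 2 of Lr11-/- scWAT and on 1 of WT scWAT. Its differences between genotypes, 1.88 ± 1.06 in scWAT and 2.18 ± 1.06 in BAT, had adjusted p-values of 0.28 and 1.0 in limma. Col7a1, the anchoring fibril collagen, read -2.60, 3.80 and 2.65 in WT scWAT, 1.26, 0.48 and 0.16 in Lr11-/- scWAT, 0.79, 0.32 and -0.30 in WT BAT and 0.82, 0.70 and 1.64 in Lr11-/- BAT. The WT scWAT arrays thus enclosed all others, and it differed by -0.65 ± 1.26 (adjusted p = 0.77, limma).

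In BAT, 0 of the 29 tested collagen genes passed the adjusted threshold in limma and 0 had an unadjusted p under 0.05, where 0.0187% and 2.12% of all tested probes did. The median difference over the 25 genes was 0.13, against 0.05 over all probes, and the class medians were 0.25 for fibrillar, 0.07 for basement membrane and 0.11 for other collagens. Col8a1 had the lowest value, -1.14 ± 0.63, and its Lr11-/- BAT arrays (-2.98, -2.66 and -3.91) lay below the WT BAT arrays (-2.20, -2.09 and -1.83), as those of 1 of the 25 genes did against 4% of probes. Col11a2 (0.81 ± 0.41) and Col7a1 (0.78 ± 1.26) had the highest among genes above background throughout. Col27a1 (-0.71 ± 0.77) had the next lowest value. The adjusted p of every tested collagen gene was 1.0 in limma. The intervals were not narrow: that of Col1a1 ran from -1.08 to 1.71 and that of Col6a1 from -0.58 to 0.85. Their width rests on a spread shared by all 4 groups, so it is not that of the BAT arrays alone. For Col6a1 the SD was 0.06 in WT BAT, 0.23 in Lr11-/- BAT, 0.21 in Lr11-/- scWAT and 0.74 in WT scWAT.

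The difference between the genotype effects in the 2 depots was tested as an interaction. Of the 29 collagen genes 0 passed the adjusted threshold and 13 had an unadjusted p under 0.05, all lower in scWAT, where 0% and 4.36% of all tested probes did. Col16a1 (-3.53 ± 0.72) and Col6a1 (-2.14 ± 0.46) had an adjusted p of 0.28 in limma and Col1a1 (-2.75 ± 0.89) of 0.40. A genotype effect confined to scWAT was therefore not shown for any collagen gene. The count was 3 when arrays were weighted, and 3 also in the second series by itself. The calls over all tested probes in these 2 fits are not given here.

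Between depots, most fibrillar collagens and the 3 tested type VI chains were lower in WT BAT than in WT scWAT. Of the 25 genes above background on all arrays 13 were lower and 1 higher at the adjusted threshold in limma. Of such probes 7.83% were lower, and 4145 of 25789 were higher. With Col8a2 and Col28a1, tested only through the WT scWAT arrays, where they are high, 16 of the 29 passed and 15 were lower, where 24.8% of all tested probes passed and 9.13% were lower. The median difference over the 25 was -2.15, against 0.10. The BAT arrays lay below all scWAT arrays in 15 of the 25, against 14.4% of probes. Col16a1 (-4.05 ± 0.51, 16.6-fold), Col1a1 (-3.76 ± 0.63, 13.6-fold), Col5a2 (-3.42 ± 0.64), Col3a1 (-3.19 ± 0.62) and Col1a2 (-3.16 ± 0.55) fell most, with adjusted p-values in limma of 0.0024, 0.0046, 0.0065, 0.0071 and 0.0050. Col8a2 was not well above background on any WT BAT array and was at least 13.6-fold lower (adjusted p = 0.017, limma). The dimmer probe of Col8a2, which was not tested, did not show this difference, at 0.05. The 3 tested type VI chains fell, by 2.58 for Col6a1, 2.20 for Col6a2 and 2.32 for Col6a3 on the log2 scale, and so did Col15a1 (-2.32) and Col18a1 (-2.61), with adjusted p-values in limma of 0.0023, 0.018, 0.024, 0.012 and 0.022. With each array left out in turn, Col6a3 passed in 7 of 12 fits, Col18a1 in 8, Col6a2 in 9 and Col6a1 and Col15a1 in 12. The dimmer probes of Col15a1 differed by -1.77 and -1.82 without passing (adjusted p = 0.087 and 0.093, limma). The count of 16 was 9 with the slide as a block, 8 without WT BAT replicate 2 and 10 without WT BAT replicate 3. For these fits the calls over all tested probes are not given here.

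By class, the median difference of BAT from scWAT in WT mice was -2.94 for fibrillar, -0.51 for basement membrane and -2.17 for other collagens. None of the 5 basement membrane genes passed; Col4a1 differed by -0.77 ± 0.53 and Col4a2 by -0.51 ± 0.48, with adjusted p-values of 0.30 and 0.45 in limma. Among fibrillar collagens 6 of 8 were lower and Col27a1 was the exception. Col27a1 read -2.66, -0.45 and -2.80 in WT scWAT, -2.34, 0.33 and -0.04 in Lr11-/- scWAT, 1.22, 1.45 and 0.19 in WT BAT and 0.21, 0.73 and -0.19 in Lr11-/- BAT. It was higher in WT BAT by 2.93 ± 0.77, 7.60-fold (adjusted p = 0.021, limma). Lr11-/- scWAT replicates 2 and 3, which held brown markers at the BAT level, read within the range of the BAT arrays, and replicate 1 read with WT scWAT. Its promoter, at chr4:63215162-63215461 (+ strand, RefSeq, GRCm38.p6), is shown as that of the only collagen gene higher in BAT at the threshold.
Col27a1: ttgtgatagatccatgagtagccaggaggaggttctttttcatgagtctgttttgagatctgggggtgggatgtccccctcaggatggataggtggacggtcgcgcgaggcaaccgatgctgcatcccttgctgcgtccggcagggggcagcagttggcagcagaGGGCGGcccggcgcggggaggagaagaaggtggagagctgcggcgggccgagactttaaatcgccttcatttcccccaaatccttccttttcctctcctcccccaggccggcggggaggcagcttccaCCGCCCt
It held GGGCGG at 2 places, no CCAAT and no TATAAA, with a GC content of 61.7%.

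In Lr11-/- mice 0 of the 29 collagen genes passed between the depots in limma and 0 had an unadjusted p under 0.05, where 0.0405% and 9% of all tested probes did. The class medians of BAT against scWAT were -0.81 for fibrillar, 0.12 for basement membrane and -0.46 for other collagens. The Lr11-/- BAT arrays lay below all Lr11-/- scWAT arrays in 7 of the 25 genes, against 8.6% of probes above background throughout. They were Col6a1, Col6a3 and 5 of 8 fibrillar genes: Col1a1 (-1.01 ± 0.63), Col1a2 (-0.91 ± 0.55), Col3a1 (-0.94 ± 0.62), Col5a1 (-0.71 ± 0.55) and Col5a2 (-0.95 ± 0.64). This comparison, the one between WT depots and those between genotypes share their arrays and are not independent.

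Set against the mean of the 6 BAT arrays, each scWAT array shows where it lay. The fibrillar median was 2.99, 4.09 and 1.20 above BAT on the WT scWAT arrays and 1.13, 0.62 and 0.92 on the Lr11-/- scWAT arrays. For type VI chains it was 2.75, 3.10 and 0.56 against 0.75, 0.34 and 0.42, and for the class of other collagens 1.89, 3.12 and 0.84 against 0.68, 0.10 and 0.05. WT scWAT replicate 3 was thus close to the Lr11-/- arrays. Of the 25 genes 19, 18 and 18 exceeded all 6 BAT arrays on the WT scWAT arrays, where 27.7%, 34% and 29.2% of probes did, and 14, 9 and 10 did on the Lr11-/- scWAT arrays, where 23.4%, 19.2% and 23.1% of probes did. Basement membrane collagens had medians of 1.23, -0.67 and -0.25 in WT and of -0.05, -0.25 and -0.21 in Lr11-/-.

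**Figure D3:**
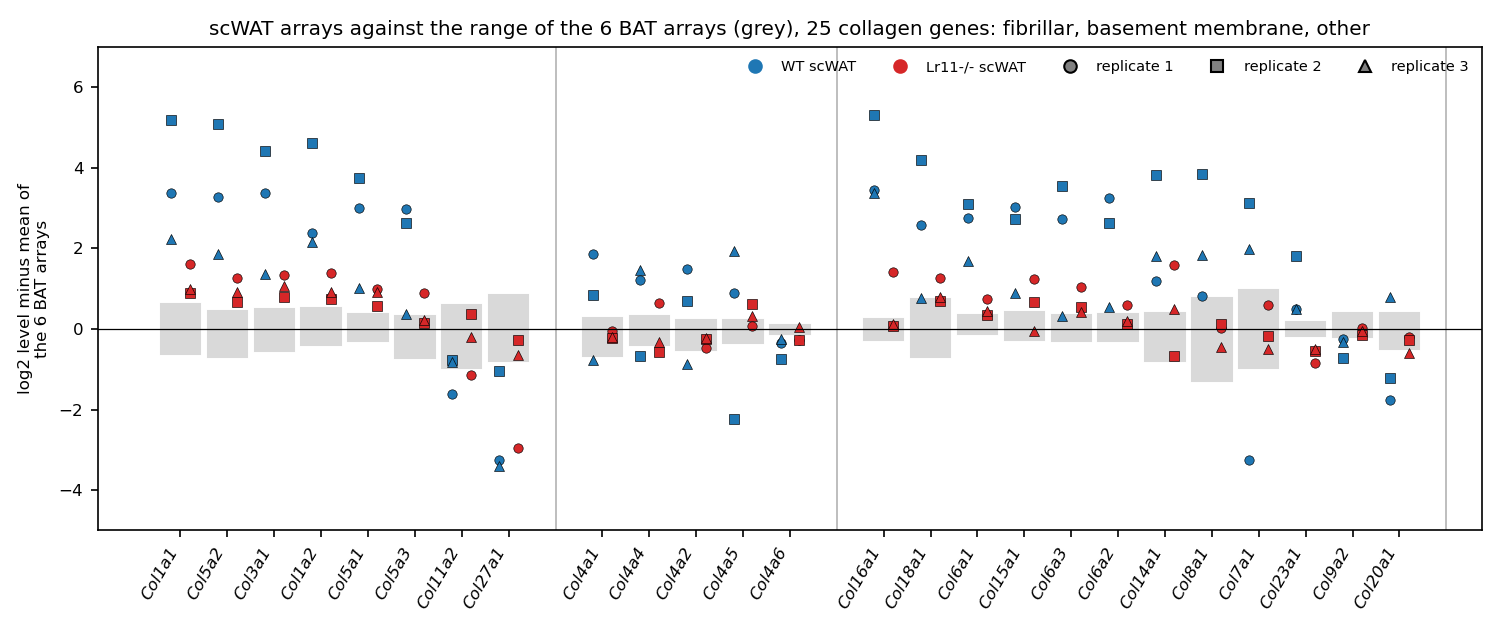
Level of each of the 25 collagen genes above background throughout on the 3 WT and 3 Lr11-/- scWAT arrays, as the log2 difference from the mean of the 6 BAT arrays (y axis), with grey boxes for the range of the BAT arrays and vertical lines between the classes. WT scWAT points rise above the boxes for 6 of 8 fibrillar genes and for Col16a1 and Col6a1, and most Lr11-/- points lie close to or inside the boxes.

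Markers of other cell types were set beside the collagens. All 9 fibroblast and progenitor markers had lower means in Lr11-/- scWAT, against 45% of probes, and 1 of them (Cd34, -1.30 ± 0.27, adjusted p = 0.038, limma) passed, against 1.87%; their median relative to BAT was 1.37, 2.18 and 1.32 on the WT scWAT arrays and 1.18, -0.23 and 0.35 on the Lr11-/- arrays. Their summed level ran from 8.55 to 8.97 in WT scWAT, from 7.5 to 8.82 in Lr11-/- scWAT and from 7.45 to 8.0 in BAT, with all 9 well above background on every array. The 4 macrophage markers had medians of 1.93, 2.84 and 0.79 in WT scWAT against 1.33, 0.83 and 0.63 in Lr11-/- scWAT, and 0 of 4 passed in limma, with 1 below 0.05 before adjustment. Of the B lymphocyte markers 5 of 5 had lower means, with 0 of 4 tested past the threshold in limma and 3 below 0.05 before adjustment. The 6 endothelium markers (median -0.19, 4 lower) and the 7 mural cell markers (median -0.37, 4 lower) held 0 that passed in limma. Before adjustment 1 endothelium marker, which was higher, and 3 mural cell markers, which were lower, were below 0.05. Of all 32121 tested probes 5397 were higher and 10.8% lower at that unadjusted threshold. Cd34 differed by -0.85 (adjusted p = 0.57, limma) without Lr11-/- scWAT replicates 2 and 3. All 6 brown adipocyte markers had higher means in Lr11-/- scWAT and 3 passed, 1 of them among the 3 above background on all arrays, against 3.4% of probes called higher; their summed level ran from -0.27 to 7.57 in WT scWAT, from 8.07 to 11.55 in Lr11-/- scWAT and from 11.02 to 11.53 in BAT. On Lr11-/- scWAT replicate 1 the brown marker median was 3.41 below BAT. Col1a1, Col1a2, Col6a1, Col16a1 and Col23a1 are among the 9 of 25 genes whose Lr11-/- scWAT arrays all lay below the WT arrays. That choice of genes places replicate 1 below WT, so this is no separate result. Among the genes not below all 3 WT arrays on replicate 1 were Col6a2, Col6a3, Col14a1 and Col18a1. They read 2.0, 3.81, 1.75 and 2.82, above the lowest WT array at 1.96, 3.09, 1.35 and 2.31. The part of these cell types in the collagen differences was not tested. In whole tissue, fewer cells that make a collagen and less of its RNA per cell cannot be told apart.

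**Figure D4:**
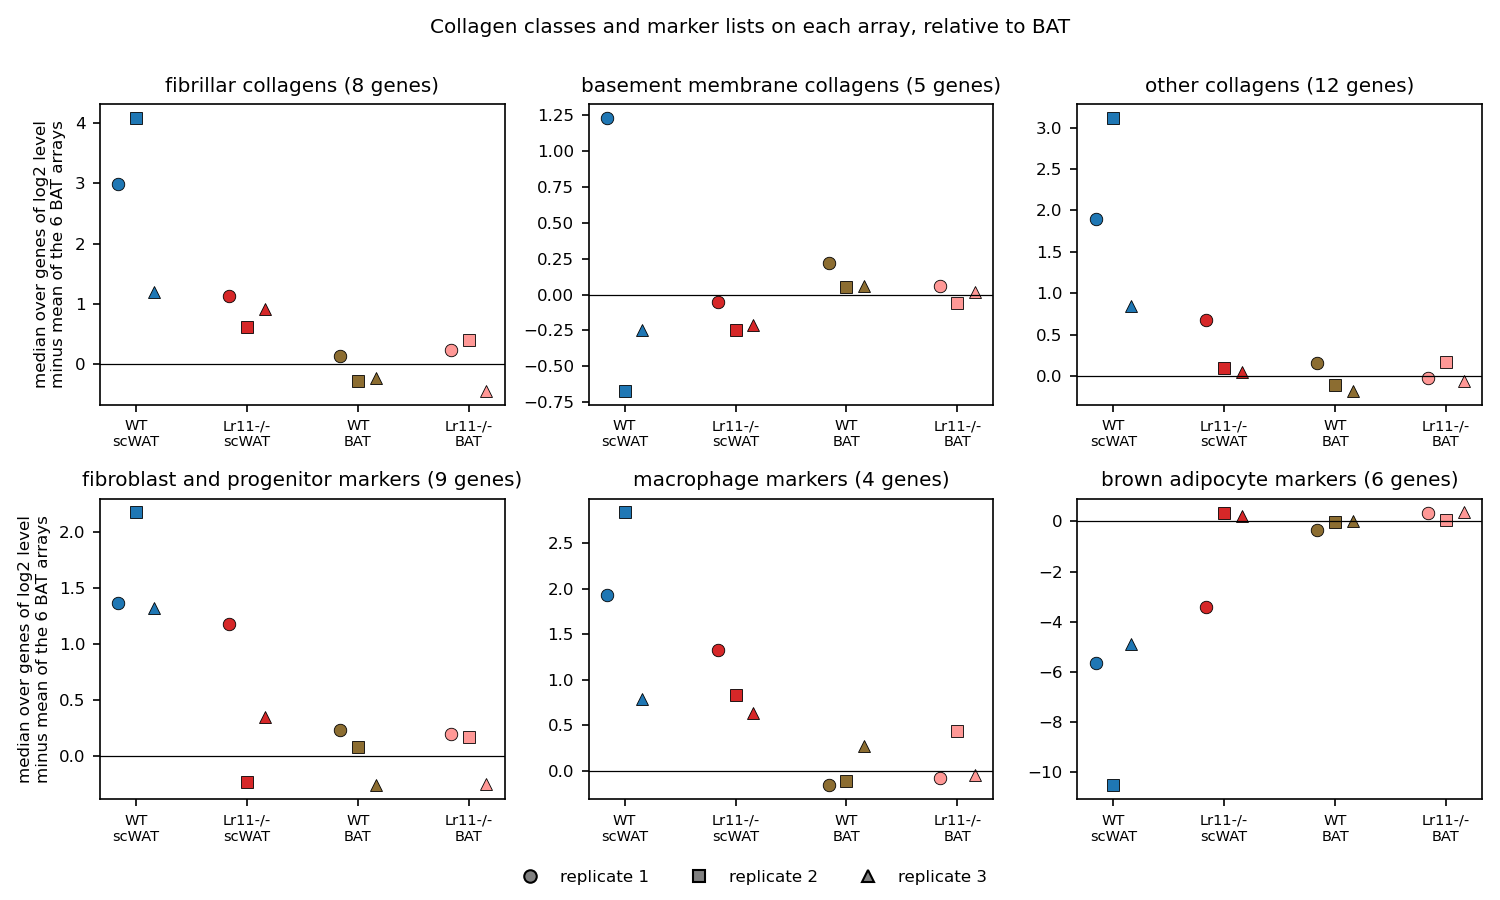
Median over the genes of each collagen class and of 3 marker lists on each array, as the log2 level minus the mean of the 6 BAT arrays (y axis), by group, with symbols for replicates. Fibrillar and other collagens and the fibroblast and macrophage markers are highest on WT scWAT replicate 2, basement membrane collagens on replicate 1, and the brown adipocyte markers of Lr11-/- scWAT replicates 2 and 3 lie at the BAT level.

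The calls in scWAT depended on single arrays. Without Lr11-/- scWAT replicate 2, or without replicate 3, 0 of the 29 collagen genes passed, and 28 and 3 probes did over the whole array. Without both, with the remaining array assumed to vary like the other groups, 0 passed and 43 probes did, while the median difference was -1.64 for fibrillar, -0.11 for basement membrane and -1.19 for other collagens. Col16a1 then differed by -2.61 and Col6a1 by -1.76, with adjusted p-values of 0.37 and 0.41 in limma. Without WT scWAT replicate 3 the count was 16 (15 lower), and without Lr11-/- scWAT replicate 1 it was 11 (10 lower). Leaving out replicate 1 of WT scWAT gave 8 and leaving out its replicate 2 gave 3. Leaving out any 1 BAT array gave 2, and leaving out the 5 arrays with skeletal muscle markers gave 11. For the fits that gave 16, 11, 8, 3, 2 and 11, the calls over the whole array are not given here. These counts show how the calls depend on arrays and are no result about the collagens. Col16a1 and Col6a1 each passed in 10 of the 12 fits that left out 1 array, and Col23a1 in 4.

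Other genes of the collagen pathway were followed as lists. Of 22 tested genes for folding and modification in the endoplasmic reticulum, 1 fell in Lr11-/- scWAT, against 1.87% of all tested probes: Fkbp10, a prolyl isomerase that helps procollagen fold (-2.32 ± 0.51, adjusted p = 0.040, limma). The median of the list was -0.56, and 19 of the 20 genes above background throughout had a lower mean, against 45% of probes. P4ha1, a subunit of prolyl 4-hydroxylase, which stabilises the triple helix, had the highest value of the list among the genes above background throughout, 0.96 ± 0.57 (adjusted p = 0.30, limma). P4hb, its other subunit, differed by -1.18 ± 0.37 (adjusted p = 0.080, limma). In BAT, P4ha1 (1.58 ± 0.57) and P4ha2 (1.16 ± 0.37) had the largest differences, both with an adjusted p of 1.0 in limma. In WT mice 6 genes of the list, against 9.13% of all tested probes, were lower in BAT than in scWAT, led by Fkbp10 (-3.07 ± 0.51, adjusted p = 0.0045, limma), and Colgalt2, which adds galactose to collagen, was higher (2.16 ± 0.68, adjusted p = 0.041, limma).

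Procollagen is trimmed outside the cell and then cross-linked. Of 11 genes for these steps above background throughout 3 fell in Lr11-/- scWAT, against 1.52% of such probes, with a median of -1.61. Lox, the copper enzyme that starts cross-links, read 1.67, 2.07 and 0.97 in WT scWAT, -0.85, -0.87 and -0.18 in Lr11-/- scWAT, -0.73, -0.94 and -1.35 in WT BAT and -1.64, -1.08 and -1.71 in Lr11-/- BAT. Its fall of -2.20 ± 0.33 (adjusted p = 0.016, limma) left all 3 Lr11-/- arrays below all 3 WT arrays. The procollagen N-proteinases Adamts2 (-2.42 ± 0.43) and Adamts14 (-1.73 ± 0.44) fell too, with adjusted p-values of 0.029 and 0.049 in limma. The Lox relative Loxl4 was well above background on the 3 WT scWAT arrays and on none of the other 9, and so was tested only where it is high; it was at least 2.52-fold lower in Lr11-/- scWAT (adjusted p = 0.049, limma). In WT mice 6 of the 11 were lower in BAT than in scWAT, against 7.83% of such probes, with Adamts2 (-2.75 ± 0.43) and Adamts14 (-2.71 ± 0.44) leading at adjusted p-values of 0.0038 and 0.0043 in limma.

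Of 17 proteins that bind fibrils or form fibres with them, all had a lower mean in Lr11-/- scWAT, against 45% of probes, and 3 fell, against 1.52%, all small leucine-rich proteoglycans that coat fibrils: Lum (-2.25 ± 0.36), Aspn (-1.63 ± 0.28) and Dcn (-1.64 ± 0.40), with adjusted p-values of 0.021, 0.027 and 0.045 in limma. The list median was -1.64. Thrombospondin 2, Thbs2, had the lowest value, -2.54 ± 1.1 (adjusted p = 0.16, limma). In WT mice 13 of the 17 were lower in BAT, against 7.83% of probes above background throughout, led by Thbs2 (-4.56 ± 1.1) and Thbs1 (-3.53 ± 0.95), with adjusted p-values of 0.015 and 0.024 in limma. Fibronectin, Fn1, which fibril assembly needs, differed by -2.23 ± 0.68 between the genotypes in scWAT (adjusted p = 0.075, limma).

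Among 8 tested collagen receptors Mrc2, which takes up collagen for degradation (-2.65 ± 0.45, adjusted p = 0.026, limma), and Itgb1, the common beta chain of the collagen-binding integrins (-1.0 ± 0.24, adjusted p = 0.045, limma), fell in Lr11-/- scWAT, against 1.87% of tested probes. Of 15 tested basement membrane partners 1 passed as lower, against the same share, the nidogen Nid2 (-2.61 ± 0.54, adjusted p = 0.037, limma), and the median over the 14 above background throughout was -0.37. Of 10 tested ligands and receptors of the TGF-beta system, a known inducer of collagen genes, 0 passed in limma. Before adjustment 3 were below 0.05, all lower, where 10.8% of all tested probes were lower at that threshold. The lowest values of this list were those of the ligands Tgfb2 (-2.79 ± 0.94) and Tgfb3 (-1.28 ± 0.48), with adjusted p-values of 0.094 and 0.12 in limma. In BAT 0 genes of these lists passed between the genotypes in limma, with 3 below 0.05 before adjustment, all higher, against 2.12% of all tested probes in either direction. Without Lr11-/- scWAT replicate 2, without replicate 3, or without both, 0 of the 11 genes of these lists called lower in scWAT passed in limma, while 11 of 11 differences stayed negative. They ran from -2.42 to -0.90 without both, where Lox differed by -2.42 (adjusted p = 0.17, limma) and Lum by -1.46 (adjusted p = 0.41, limma).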

How the data were processed

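RNA of 12 tissue samples was hybridised with Cy3 on 1-colour Agilent arrays. Per the file headers, the deposited intensity values (gProcessedSignal) come from Agilent Feature Extraction 10.10.1.1, which the authors' service ran; the submitters' processing notes name version 10.10, and the files hold 62976 spots an array. A table that the authors deposited for all arrays has these same intensity values, neither scaled nor on the log2 scale, with a largest difference of 0 from the scanner files. From the scanner files, control and outlier spots were left out, log2 intensity minus each array's 75th percentile was averaged over the spots of a probe, and 32121 of 55681 probes, well above background on all 3 arrays of a group, were fitted in limma 3.58.1 (R 4.3.3) with 4 group means. Each probe had 1 estimate of the spread, shared by the 4 groups. p-values were adjusted over all these probes by Benjamini-Hochberg, with a threshold of 0.05. The precision is limited by 3 arrays a group; the number of spots well above background was 32377 to 37002 an array and none was saturated. Genes were named through RefSeq accessions: of 28685 probes with one, 27235 received a symbol. The array series, the slide and its scan day are the batches that the titles and headers give; the first series of scWAT and that of BAT lay on slides of their own and the second series of all groups on 1 slide. Values for every array were given for the main fibrillar, type IV, type VI and multiplexin chains, for collagen genes past the threshold in a genotype comparison, and for those with the 3 highest and 3 lowest differences of a contrast where they are described; genes of other lists were named when past the threshold in a genotype comparison or among the largest changes of their list in a contrast, not all of which are given. The probe filter of the 12 arrays was kept where arrays were left out, a choice made after a first run with the filter recomputed. The fit was tested on simulated data. The collagen genes, classes and lists were chosen with earlier results of these data known. Alternatives changed the scaling, background, filter, batch terms, weights, probes and arrays. The labels hold no replicate numbers, so replicates were numbered in accession order.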

Additional observations from a re-analysis of the deposited data

How the results depend on the processing

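No paired analysis was possible because the labels carry no replicate numbers. In Lr11-/- against WT scWAT, 5 collagen genes passed; the count was 8 without scaling, 2 with normexp background correction, 3 without a filter, 9 in the second array series alone, 9 with array weights, 0 when only the 2 groups were fitted (13 at an unadjusted p), 0 without the 2 Lr11-/- arrays with brown markers at the BAT level, 11 without the 5 arrays with muscle markers, and from 0 to 16 with each array left out. It was 4 to 6 under all other alternatives. The fibrillar median became -2.66 without the muscle arrays, and the basement membrane median -0.16 in the second series alone and -0.11 without the 2 arrays with brown markers. For the difference between depots the count of 0 became 3 in the second series, 3 with array weights and 0 to 6 with an array left out, and the fibrillar median became -3.00 without the muscle arrays. For WT BAT against WT scWAT the count of 16 became 9 with the slide as a block, 10 in the second series, 9 with only the 2 groups, 9 without the muscle arrays (fibrillar median -3.72) and 8 to 17 with an array left out (8 without WT BAT replicate 2 and 10 without replicate 3). For Lr11-/- BAT against Lr11-/- scWAT the count of 0 became 1 with array weights. In BAT the count between genotypes was 0 under every alternative. For all these counts the calls over all tested probes are not given here. Shifts of the whole array and of the collagens therefore cannot be told apart. Signs changed in scWAT only for genes that did not pass: without the 2 arrays with brown markers Col10a1 became -0.90, Col11a2 -0.07, Col27a1 -0.37, Col4a5 -0.11 and Col9a1 -0.02; Col4a5 became -0.09 without scaling, -0.17 with normexp, 0.00 with array weights and -1.06 to 1.02 with an array left out; Col20a1 became -0.24 in the second series and -0.16 to 1.13 with an array left out; and Col7a1 ranged from -2.59 to 0.61, and was 0.03 without WT scWAT replicate 3. The cause of these shifts was not tested. Deposited table and scanner files gave the same values. The alternatives without the 2 and the 5 arrays were chosen after seeing the data, and gMeanSignal was not used here, so normexp ran on the median signals. Signal limits the 14 genes not tested.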
